A study of Mus musculus with 51 samples.

Results

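Among the regions that carried H3K27ac in late astrocytes only, 8022 had, by peak calls, gained H3K4me1 in early astrocytes and lacked it in progenitors. These newly primed sites were defined by the deposited peak lists of 3 stages in which mouse embryonic stem cells become astrocytes in culture: astrogliogenic neural precursor cells (aNPC), early astrocytes after 1 day of differentiation (eA) and late astrocytes after 5 days (lA). A site was kept if it was an lA H3K27ac peak on chromosomes 1 to 19 that overlapped no H3K27ac peak of aNPC or eA, overlapped an eA H3K4me1 peak and overlapped no aNPC H3K4me1 peak, with an overlap of 1 bp counted. Of 90545 lA H3K27ac peaks, 25084 were absent from both earlier H3K27ac lists, and the newly primed sites were 32.0% of these and 8.86% of the whole list. All groups came from embryonic stem cells of the C57/BL-6 strain, untreated by siRNA, with progenitors grown in EGF and FGF-2 and astrocytes obtained in medium with serum and LIF. Both marks were measured by ChIP-seq in 2 biological replicates per stage, 12 samples in all, and the authors merged the replicates before they called peaks, so that each of the 6 lists is 1 measurement without replicate error. The remaining lA-unique sites served for comparison: 7254 sites with H3K4me1 in both aNPC and eA (primed since aNPC), 4671 sites with H3K4me1 first in lA (gaining both marks together), 4740 sites without H3K4me1 in any stage and 397 sites with H3K4me1 in aNPC but not in eA. In cultures of many cells, a site marked in more cells and a site marked more strongly in each cell cannot be told apart.

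Enhancers carry H3K4me1, a single methyl group on a lysine of the histone H3 tail, both while they wait in a primed state and once they are in use. H3K27ac, an acetyl group on another lysine of that tail, is added when enhancers and promoters are at work, so a region with the first mark alone is called primed. Enhancers are often primed before they are active, and such priming is known from many lineages that descend from stem cells. In the forebrain, precursors that have made neurons turn to astrocytes under gp130 cytokines such as LIF and under BMPs, which act through STAT and SMAD proteins, together with nuclear factor I (NFI) and SOX proteins. AP-1 is a family of dimers of FOS, JUN and ATF proteins that binds enhancers in many cell types, and TEAD proteins carry the Hippo pathway's co-activators YAP and TAZ to DNA.

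Sequences of 5 newly primed sites are shown because they hold the letters on which the sequence comparisons turn: those of AP-1 and TEAD, more frequent here than at sites primed since aNPC, those of the E-box, less frequent, and those of NFI and RUNX, the families of 2 factors that the study depleted. Each is the stretch of 200 bp around the H3K27ac summit, read 5′ to 3′ from the mm9 genome, and capitals mark the match of the named motif. For each motif, the site was the newly primed site with the highest significance in the lA H3K27ac list among those assigned to a gene of the lists described below, outside annotated UTRs.
Itgb1, AP-1, mm9 chr8:131171463-131171662, plus strand: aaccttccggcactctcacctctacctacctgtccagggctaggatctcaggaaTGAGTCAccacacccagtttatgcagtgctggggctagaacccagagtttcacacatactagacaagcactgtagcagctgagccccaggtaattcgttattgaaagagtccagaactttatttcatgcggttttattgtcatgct
Kcnj10, TEAD, mm9 chr1:174285427-174285626, plus strand: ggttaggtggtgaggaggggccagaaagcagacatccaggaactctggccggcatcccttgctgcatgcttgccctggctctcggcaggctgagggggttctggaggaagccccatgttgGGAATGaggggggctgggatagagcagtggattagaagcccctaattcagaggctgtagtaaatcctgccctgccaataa
Ptx3, E-box, mm9 chr3:66020092-66020291, plus strand: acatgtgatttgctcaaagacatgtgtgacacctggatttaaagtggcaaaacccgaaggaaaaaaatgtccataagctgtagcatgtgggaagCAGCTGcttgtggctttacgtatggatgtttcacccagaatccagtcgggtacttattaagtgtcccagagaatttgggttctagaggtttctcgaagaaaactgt
S1pr3, NFI half-site, mm9 chr13:51458499-51458698, plus strand: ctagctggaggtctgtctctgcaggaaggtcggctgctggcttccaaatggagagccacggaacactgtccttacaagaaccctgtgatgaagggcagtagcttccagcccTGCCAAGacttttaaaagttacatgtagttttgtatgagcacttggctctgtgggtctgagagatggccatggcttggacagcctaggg
Col6a2, RUNX, mm9 chr10:76106939-76107138, plus strand: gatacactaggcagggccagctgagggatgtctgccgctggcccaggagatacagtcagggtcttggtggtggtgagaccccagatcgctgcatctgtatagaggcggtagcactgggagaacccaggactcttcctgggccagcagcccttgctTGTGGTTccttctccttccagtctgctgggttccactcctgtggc
The letters searched, on both strands, were TGACTCA for AP-1, GGAATG for TEAD, CAGCTG for the E-box, TGCCAAG for NFI and TGTGGTT for RUNX, and a match is a description of the sequence that says nothing of binding. Of all 90545 lA H3K27ac peaks, 3.48% held the AP-1 letters in such a window, 11.2% the TEAD letters, 12.3% the E-box, 4.26% the NFI half-site and 3.91% the RUNX letters. The AP-1 window, which also holds TEAD letters that share bases with the AP-1 match and an E-box left in lower case, lies between genes at -37993 bp from the start site of Itgb1 (negative distances are upstream), which encodes the integrin beta subunit shared by many matrix receptors. The eA H3K4me1 peak at this site, chr8:131171627-131172554, reached over from a region already marked in aNPC and covered only the end of the site. It did not cover the AP-1 letters, and the site had no lA H3K4me1 peak. The TEAD window is in an intron of Kcnj10, the inwardly rectifying potassium channel by which astrocytes buffer potassium. The E-box window lies at -3543 bp from the start site of Ptx3, a secreted pentraxin known from reactive astrocytes, and in an intron of the neighbouring gene Veph1. The NFI window lies at -45425 bp from S1pr3, a receptor for sphingosine phosphate, and the RUNX window at -20707 bp from Col6a2, a collagen chain, both between genes, and the RUNX window also holds an E-box in lower case.

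The newly primed sites were mostly short and modest peaks. Their median width in the lA H3K27ac list was 300 bp (quartiles 226 and 424 bp), against 430 bp over the whole list. The median −log10 q at the summit, the significance that the authors' peak caller assigned, was 5.57 (quartiles 4.17 and 7.70, range 1.72 to 39.1), against 8.35 over the whole list, and 60.1% of the sites (4821) reached a −log10 q of 5. Sites primed since aNPC had a median −log10 q of 5.24 and a median width of 290 bp, and sites gaining both marks together had 5.17 and 276 bp. These are values of the lists that chose the sites and are given as a description. Many sites lay near the limits of the rule. At 630 sites (7.85%) the eA H3K4me1 peak reached no more than 50 bp into the site, an aNPC H3K4me1 peak lay within 100 bp of 874 sites (10.9%), and an eA H3K27ac peak lay within 100 bp of 421 (5.25%). Just outside the rule, 537 of the sites primed since aNPC (7.40%) were touched by no more than 50 bp of an aNPC H3K4me1 peak, and 668 of the sites gaining both marks together (14.3%) had an eA H3K4me1 peak within 100 bp. The sites made up between 29.6% and 34.4% of the lA-unique peaks on each of the 19 chromosomes.

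The sites with the highest significance lay far from and near to start sites. The first, with a −log10 q of 39.1, was 733 bp wide at chr9:74255639-74256371, in a region without a coding start site within 50 kb. Its eA H3K4me1 peak was 226 bp wide, its lA H3K4me1 peak 268 bp, and the nearest aNPC peak of H3K4me1 was 18242 bp away. The second, at chr4:56317880-56319130, was 1251 bp wide with a −log10 q of 36.0 and was likewise without a gene, and its H3K4me1 peak was 718 bp wide in eA and 839 bp in lA. Both of these sites were remote from any H3K27ac peak of eA, by 129138 bp and 42691 bp. The third lay in an intron of Get4, whose product helps to insert tail-anchored proteins into membranes, with a −log10 q of 35.8, and there an eA H3K27ac peak ended 736 bp away. A site of 1093 bp lay at -13387 bp from the start site of Trim2, a ubiquitin ligase, with a −log10 q of 32.5. The site in an intron of St3gal4, a sialyltransferase, had a −log10 q of 32.5 and an eA H3K27ac peak 266 bp away, and the site in an intron of Pdlim4, an actin-associated PDZ and LIM protein, had 30.9 with an eA H3K27ac peak 609 bp away. All 10 sites of highest significance had an eA H3K4me1 peak that overlapped no aNPC H3K4me1 peak, and all 10 had an lA H3K4me1 peak.

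**Figure D1:**
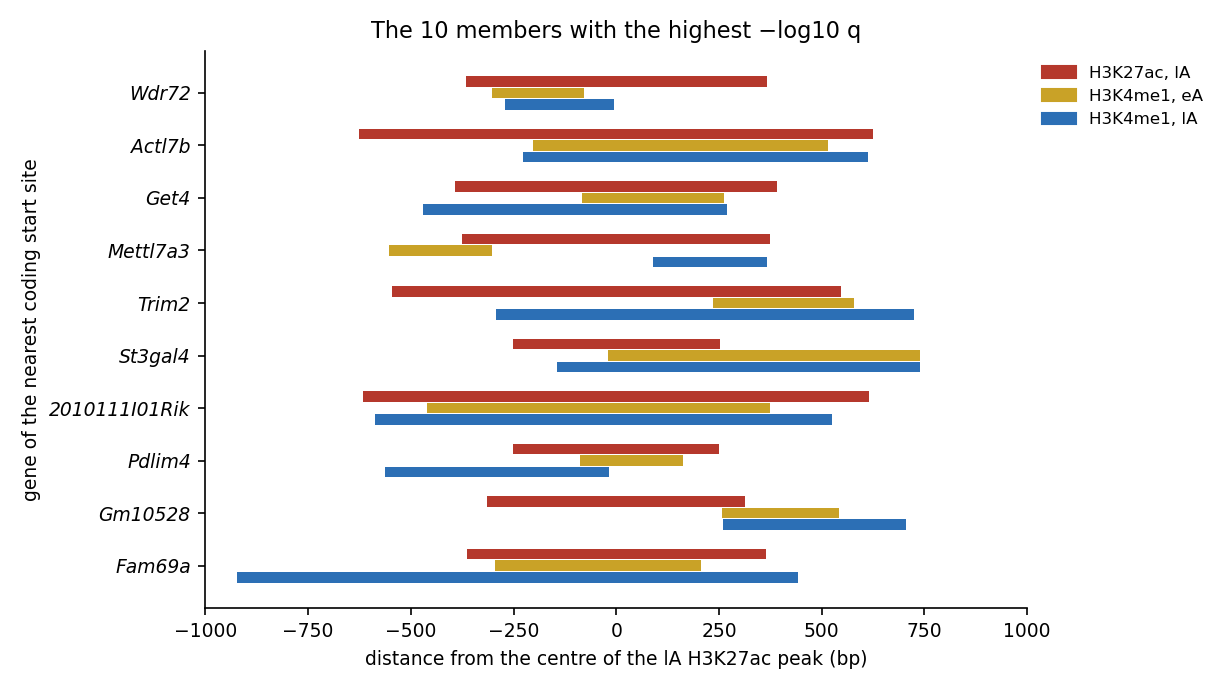
The 10 newly primed sites with the highest −log10 q in the lA H3K27ac list, named by the gene of the nearest coding start site, with the extent of the lA H3K27ac peak and of the eA and lA H3K4me1 peaks on an axis of distance in bp from the centre of the H3K27ac peak. The eA H3K4me1 peak overlapped part of every H3K27ac peak, and at Mettl7a3 the eA and the lA H3K4me1 peaks lay at opposite ends of the site.

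Most newly primed sites gained H3K4me1 as a separate peak. At 6124 sites (76.3%, 95% Wilson interval 75.4 to 77.3%) the eA H3K4me1 peak overlapped no aNPC H3K4me1 peak anywhere along its length, and at the other 1898 (23.7%) it reached over from a region already marked in aNPC. This share follows in part from the rule, which requires that the site itself lack aNPC H3K4me1, and over the whole eA H3K4me1 list 30.0% of the peaks overlapped no aNPC peak. The median distance from a site to the nearest aNPC H3K4me1 peak was 1605 bp (quartiles 263 and 7060 bp). Nearby acetylation was common: 36.1% of the sites had an eA H3K27ac peak within 1 kb, and the nearest one was at a median of 5149 bp, whereas 12.4% had an aNPC H3K27ac peak within 1 kb. Where the eA H3K4me1 peak reached over from aNPC, 52.0% of the sites (95% interval 49.8 to 54.2%) had an eA H3K27ac peak within 1 kb, and where it was separate, 31.1% (30.0 to 32.3%). At 1364 sites (17.0%) the same eA H3K4me1 peak overlapped an eA H3K27ac peak outside the site. The sites were spread over 7644 eA H3K4me1 peaks, of which 371 (4.85%) held 2 or more of them.

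The H3K27ac summits mostly lay inside an H3K4me1 peak, at some distance from its summit. The H3K27ac summit lay inside the eA H3K4me1 peak at 69.5% of the sites (95% interval 68.4 to 70.5%), and the distance from it to the eA H3K4me1 summit was a median of 184 bp. In lA, where the list was not used to choose the sites, the H3K27ac summit lay inside an H3K4me1 peak at 70.3% (69.3 to 71.3%), at a median of 190 bp from the summit of the H3K4me1 peak. Both medians are below the average length to which the authors sheared the chromatin, so they do not show separate positions. The eA H3K4me1 peak at the sites had a median width of 496 bp, close to the 473 bp of the whole list, while it was 867 bp at sites primed since aNPC. In lA the H3K4me1 peak at the sites had a median width of 732 bp, against 451 bp over the whole lA list, and a median −log10 q of 13.2, against 8.91.

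H3K4me1 was found in lA at most newly primed sites, but less often than at sites primed since aNPC. An lA H3K4me1 peak overlapped 6757 of the 8022 sites (84.2%, 95% interval 83.4 to 85.0%) and 6738 of the 7254 sites primed since aNPC (92.9%, 92.3 to 93.5%). The difference was -8.66 percentage points (95% Newcombe interval -9.65 to -7.66), an interval that covers counting error over sites only. Of the newly primed sites without an overlapping lA H3K4me1 peak, 883 (11.0% of all the sites) had one within 500 bp and 382 (4.76%) had none. The strength of the eA H3K4me1 peak moved with this result: its median −log10 q was 8.18 at the newly primed sites and 15.7 at the sites primed since aNPC. When both groups were divided together into 4 equal bins of that −log10 q, an alternative added after seeing the data, the difference was -2.51 points (-5.41 to 0.638) in the lowest bin, where it did not pass the threshold, then -3.91, -6.12 and -11.7 points (-14.3 to -9.37) in the highest. In bins of the −log10 q of the lA H3K27ac peak, it ran from -11.1 to -5.98 points, with an interval below 0 in each. With the rule that no peak of the absent lists may lie within 1 kb, the difference was -3.69 points (past the threshold). That rule also redrew the comparison group, since a site with an aNPC H3K4me1 peak within 1 kb could then count as primed since aNPC.

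Sites that went on to be acetylated also kept H3K4me1 more often than other peaks that were new in eA. For this comparison, the 45334 eA H3K4me1 peaks that overlapped no aNPC H3K4me1 peak and no H3K27ac peak of aNPC or eA were taken as starting points. An lA H3K27ac peak overlapped 6408 of them (14.1%, 95% interval 13.8 to 14.5%), against 5637 of 52430 such peaks that had been marked in aNPC as well (10.8%, 10.5 to 11.0%), a difference of 3.38 points (2.97 to 3.80). Both shares rest on the lists by which the newly primed sites were chosen and are given as a description. Among the new peaks, those with an lA H3K27ac peak had H3K4me1 in lA in 84.8% of cases and those without in 57.2%, a difference of 27.7 points (26.6 to 28.7). This difference was 28.6 points (25.5 to 31.4) in the lowest of 4 bins of the eA −log10 q and 19.8 points (18.3 to 21.2) in the highest. The share later acetylated, again a description, was 9.30% in the lowest bin, 10.3% and 13.6% in the middle ones and 23.2% (22.5 to 24.0%) in the highest.

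**Figure D2:**
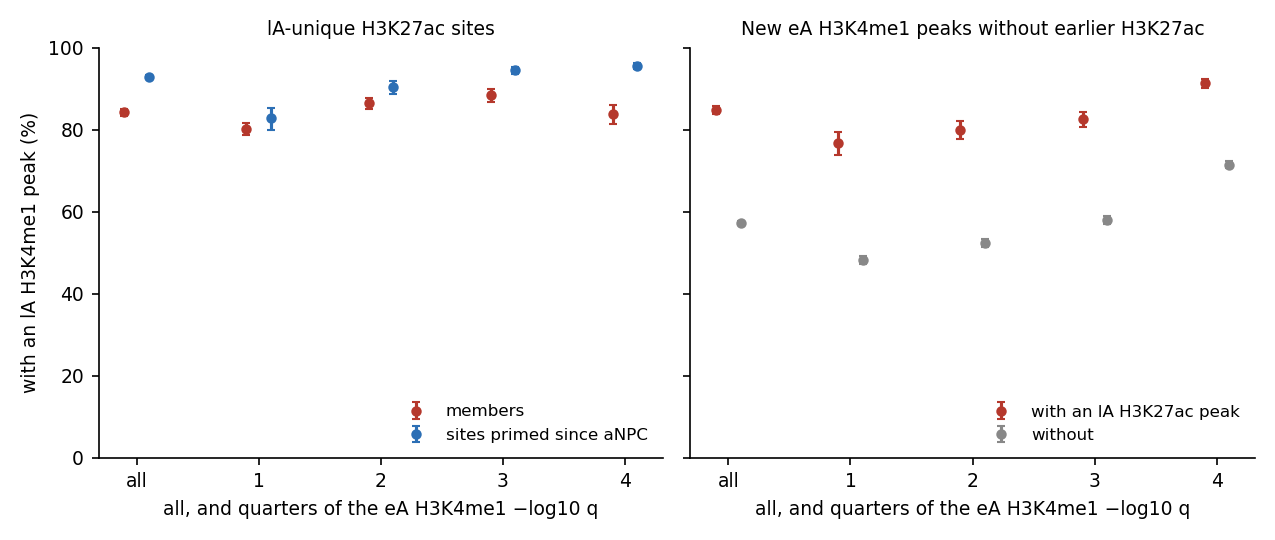
Share of sites or peaks (in percent, y axis) with an lA H3K4me1 peak, for all of them and for 4 bins of the eA H3K4me1 −log10 q (x axis, lowest to highest), with 95% Wilson intervals over sites. On the left, newly primed sites (84.2%) stood below sites primed since aNPC (92.9%), least so in the lowest bin, and on the right, new eA H3K4me1 peaks that gained H3K27ac in lA (84.8%) stood above those that did not (57.2%) in each bin.

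The newly primed sites were distal. By the position of their centres, 50.9% lay between genes, 45.6% in introns, 2.33% in exons and 1.15% at promoters, defined as the 1 kb before and the 100 bp after a coding start. Over all lA H3K27ac peaks, 9.76% were at promoters. Promoters were rarer than among sites primed since aNPC (3.03%), with a difference of -1.89 points (-2.36 to -1.44). Against sites gaining both marks together (1.37%) the interval included 0, with a difference of -0.223 points (-0.654 to 0.169). The median distance to the nearest coding start site was 42634 bp, between 35969 bp at sites primed since aNPC and 48902 bp at sites gaining both marks together. Over 50 kb from any start site lay 45.6% of the newly primed sites, 4.36 points (2.78 to 5.93) more than of the sites primed since aNPC and -3.99 points (-5.79 to -2.19) apart from the sites gaining both marks. In 2314 cases (28.8%) a site had another within 12.5 kb, and 30 such stretches held 4 or more sites. The longest in number held 6 sites each, over 29061 bp in Vps13d at chr4:144574114-144603174 and over 27327 bp in Ppp2r5e at chr12:76629981-76657307.

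AP-1 letters were more frequent at the newly primed sites than at either comparison group once the flanks of the summit were read. In the 200 bp around the summit, TGACTCA was found at 4.89% of the sites (392), at 3.98% of the sites primed since aNPC and at 4.24% of the sites gaining both marks together. The differences were 0.903 points (0.248 to 1.56) and 0.648 points (-0.116 to 1.38), so that only the first passed the threshold, and it did not when the lA H3K27ac peak had to reach a −log10 q of 5 (0.561 points), with all lists at that value (0.677), with equal list lengths (0.603) or in 100 bp (0.170). The second passed with H3K4me1 called over 50% of the peak (0.764 points, 0.0124 to 1.502). In 500 bp the shares were 14.8% (1186 sites), 11.5% and 11.5%, against 10.3% of all lA H3K27ac peaks, and the differences were 3.26 points (2.19 to 4.33) and 3.31 points (2.10 to 4.50). The mean GC content of these windows was 45.9% ± 5.11 (SD over sites) at newly primed sites, 47.4% ± 5.29 at sites primed since aNPC and 44.6% ± 4.82 at sites gaining both marks together. Within 4 bins of the GC content, added after seeing the data, the AP-1 difference in 500 bp was between 2.72 and 3.82 points from sites primed since aNPC, with an interval above 0 in each. From sites gaining both marks it was between 2.76 and 4.26 points, with an interval that included 0 in the highest bin (-0.145 to 5.41). In 200 bp the bins were uneven: against sites primed since aNPC the differences were -0.0142, 2.58, 0.134 and 0.788 points from the lowest to the highest GC content, and against sites gaining both marks 0.510, 2.56, -0.703 and 0.463 points, with an interval above 0 in 1 of 4 bins for each group. Among the newly primed sites themselves, AP-1 letters in 500 bp were at 15.4% of those with a separate eA H3K4me1 peak and at 13.0% of those where it reached over from aNPC, a difference of 2.39 points (0.574 to 4.10).

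The AP-1 matches did not centre on the summit of H3K27ac, at the newly primed sites as at those primed since aNPC. Within 100 bp of it the newly primed sites held 0.265 matches per kb, between 200 and 300 bp away 0.454, and between 900 and 1000 bp away 0.223. At sites primed since aNPC the same distances held 0.208, 0.322 and 0.183 matches per kb. TEAD letters at the newly primed sites were likewise denser off centre, with 0.740 matches per kb within 100 bp and 0.887 between 300 and 400 bp. For AP-1 between 200 and 300 bp, the 95% counting interval at the newly primed sites was 0.421 to 0.487 matches per kb. It met neither that of the sites primed since aNPC (0.293 to 0.351) nor that of the sites gaining both marks together (0.235 to 0.302). Within 100 bp and from 700 bp outwards the AP-1 interval of the newly primed sites overlapped that of the sites gaining both marks. This profile was added after the data had been seen.

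**Figure D3:**
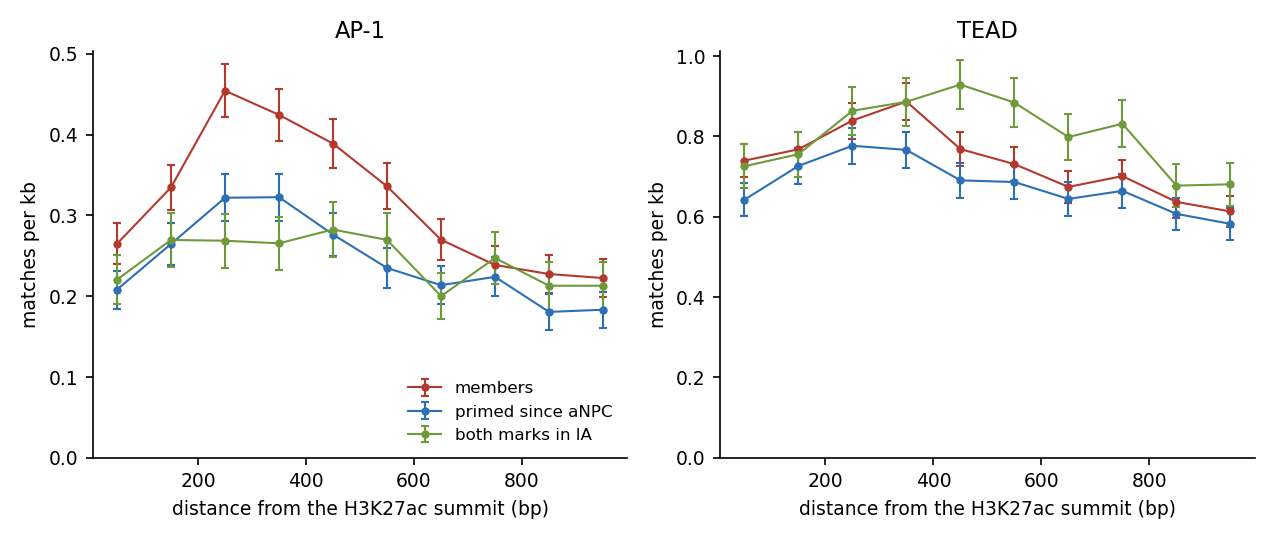
Matches of the AP-1 and TEAD letters per kb (y axis) in steps of 100 bp of distance from the H3K27ac summit (x axis, bp), at newly primed sites (members), sites primed since aNPC and sites gaining both marks in lA, with 95% counting intervals. AP-1 at the newly primed sites peaked between 200 and 300 bp from the summit at 0.454 matches per kb.

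All 6 motifs counted around eA H3K4me1 summits differed in frequency between peaks new in eA and older ones, AP-1 and the E-box by the most, while for AP-1 the interval by later acetylation included 0. In 500 bp around the summits, AP-1 letters were at 18.02% of the 45334 new eA H3K4me1 peaks without H3K27ac in aNPC or eA. They were at 10.9% of the 52430 such peaks already marked in aNPC, a difference of 7.11 points (6.67 to 7.56). In the same comparison the E-box differed by -6.74 points (-7.31 to -6.165), TEAD by 3.885, NFI by -0.996, SOX by 0.980 and RUNX by 0.404 points, with intervals that excluded 0. AP-1 letters were at 18.3% of the new peaks that gained H3K27ac in lA and at 17.98% of the others, a difference of 0.328 points (-0.677 to 1.37). TEAD letters were at 34.0% of the new peaks that gained H3K27ac and at 31.0% of the others, a difference of 3.02 points (1.78 to 4.28). NFI half-sites were less frequent at those that gained H3K27ac, with -2.37 points (-3.26 to -1.45), and so was the E-box, with -2.42 points (-3.55 to -1.26). RUNX letters were at 11.0% of both, with a difference of -0.0317 points (-0.839 to 0.816). The mean GC content was 45.7% ± 4.99 (SD over peaks) at the new peaks that gained H3K27ac, 46.0% ± 5.47 at the others and 47.5% ± 6.33 at the peaks already marked in aNPC.

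Of 24 comparisons, 12 motifs against each of 2 groups, 4 intervals excluded 0 in windows of 200 bp and 11 in windows of 500 bp, and none of the intervals was widened for the number of comparisons. TEAD letters were at 13.4% of the newly primed sites in 200 bp and at 11.8% of the sites primed since aNPC, a difference of 1.65 points (0.600 to 2.70), and the difference from sites gaining both marks was 0.354 points (-0.881 to 1.56). From the lowest to the highest bin of GC content, the TEAD difference from sites primed since aNPC was -0.151, 2.77, 2.62 and 1.71 points, with an interval above 0 in 2 of 4 bins. Its interval included 0 when the lA H3K27ac peak had to reach a −log10 q of 5 (0.960 points) and with equal list lengths (1.03 points). The E-box was at 11.6%, between 13.8% at sites primed since aNPC and 9.61% at sites gaining both marks, with differences of -2.19 points (-3.26 to -1.14) and 1.99 points (0.880 to 3.08). In 500 bp the E-box was at 23.7% of the newly primed sites and at 29.9% of the sites primed since aNPC, a difference of -6.195 points (-7.60 to -4.79), and against sites gaining both marks it was 2.75 points (1.24 to 4.23). The first of these was the motif difference of greatest size among the 24 in that window. The 3 groups stood in the same order in GC content, with means in 200 bp of 47.1% at newly primed sites, 48.25% at sites primed since aNPC and 45.8% at sites gaining both marks. In 200 bp and within bins of the GC content, the E-box interval excluded 0 in 1 of 4 bins against sites primed since aNPC and in 0 of 4 against sites gaining both marks. Each bin kept the direction, with -2.49 to -0.590 points against the first group and 0.790 to 1.48 points against the second, over fewer sites per bin. The E-box difference in 500 bp was not compared within such bins. NFI half-sites, at 4.43% of the newly primed sites in 200 bp, had intervals that included 0 in that window, but against sites primed since aNPC the interval lay below 0 with H3K4me1 called at the summit (-0.852 points) or over 50% of the peak (-0.960 points), while in 500 bp they were at 11.7%, with differences of -1.38 points (-2.43 to -0.332) and 1.66 points (0.528 to 2.76). RUNX letters were at 4.201% of the sites in 200 bp, with differences of -0.197 points (-0.845 to 0.447) and -0.252 points (-1.01 to 0.470). Against sites gaining both marks the RUNX call depended on the rule, with -1.34 points (-2.37 to -0.341) when no peak of the absent lists was allowed within 1 kb and 1.21 points (0.371 to 2.005) when all lists had to reach a −log10 q of 5. The STAT letters TTCCNGGAA were rare, at 66 sites (0.823%) in 200 bp and at 206 (2.57%) in 500 bp, where the difference from sites primed since aNPC was 0.569 points (0.0932 to 1.04). The other motifs were CRE (TGACGTCA), SOX (ATTGTT), FOX (TGTTTAC), ETS (CAGGAAGT), homeodomain (TAATTA) and NF-kB (GGGATTTCC), and in 200 bp the intervals of all 6 included 0 against both groups. Under the 1 kb rule, which also redrew the comparison groups, SOX differed from sites primed since aNPC by 1.81 points (0.558 to 3.09). In 500 bp, SOX (1.68 points, 0.320 to 3.03) and FOX (0.939 points, 0.117 to 1.76) were more frequent than at sites primed since aNPC, and ETS differed by -1.19 points (-1.96 to -0.451) from sites gaining both marks. None of the 12 motifs contains another, but matches of GGAA-bearing motifs can share bases.

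**Figure D4:**
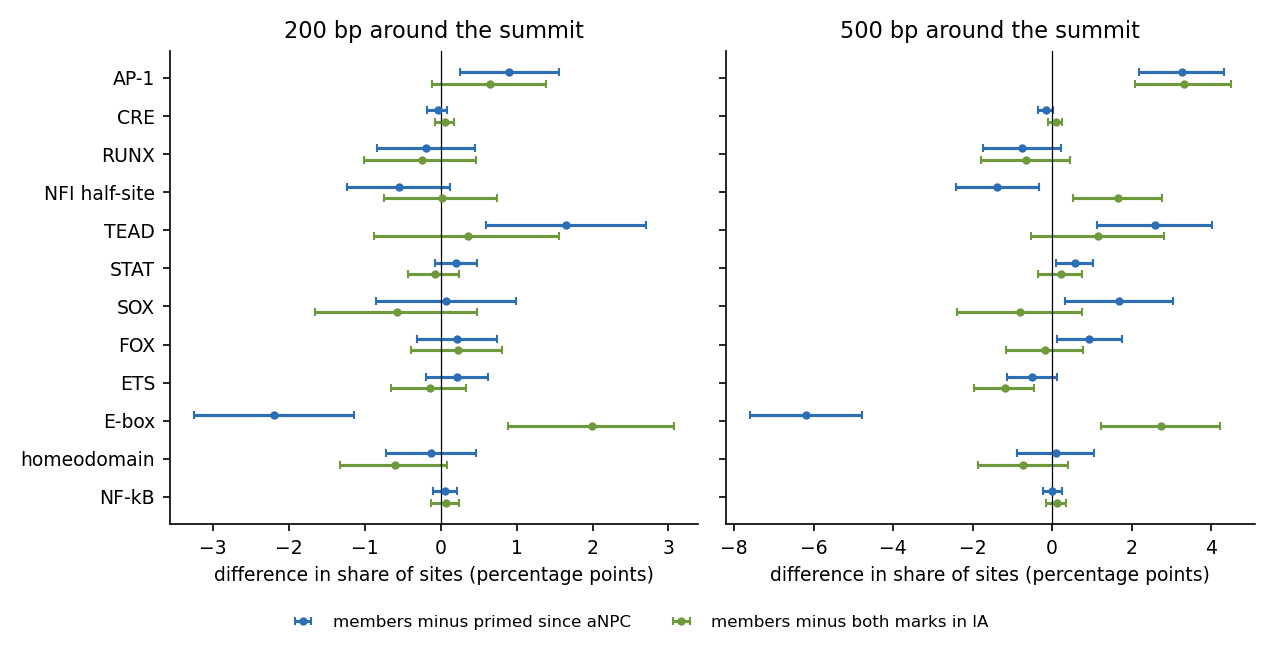
Difference in the share of sites that hold each motif (percentage points, x axis), newly primed sites (members) minus sites primed since aNPC or minus sites gaining both marks in lA, in windows of 200 bp and 500 bp around the H3K27ac summit, with 95% Newcombe intervals. AP-1 in 500 bp stood apart from both groups by 3.26 and 3.31 points, and the E-box lay on opposite sides of 0.

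For 5703 newly primed sites the gene of the closest coding start was taken as the nearest gene, because they lay in a gene or within 50 kb of that start, and the other 2319 were left without one. They named 3546 genes, 16.7% of the 21275 coding gene symbols on these chromosomes, and 53% of the 6691 genes that were nearest to any lA-unique site. A single site was assigned to 2273 of them, and 99 genes had 5 or more. Of the 3546 genes, 45.0% were also nearest to a site primed since aNPC and 33.45% to a site gaining both marks, and 1427 were nearest to neither. Several genes with the most sites had them inside a neighbouring gene. Adamtsl1, a secreted protein related to matrix metalloproteases, had 10 sites, all in its introns, and 9 of them had an lA H3K4me1 peak. The 10 sites assigned to Trim32, a ubiquitin ligase, lay in the gene Astn2, which encloses it, and those of Lrtm1 in the calcium channel subunit gene Cacna2d3, so that the assignment by start site does not tell which gene they serve. Camta1, a calmodulin-binding transcription activator, had 9 intronic sites, and 2010111I01Rik had 9, of which 8 were in introns of its own or of Fancc. Setbp1, Adam12 (a metalloprotease), Camk2d (a calcium/calmodulin-dependent kinase), Ptprg (a receptor phosphatase) and Nrp2 (a semaphorin receptor) had 8 sites each, and the 8 of Nrp2 lay in the neighbouring gene Pard3b.

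Genes of the extracellular matrix were frequent among the nearest genes. Of 31 matrix genes, 20 (64.5%) had at least 1 newly primed site, 32 sites in all, beside 16.7% of all coding genes. The site of highest significance was assigned to the proteoglycan gene Vcan, with a −log10 q of 18.7 and a weak eA H3K4me1 peak of 195 bp, and it lay in an intron of the neighbouring Xrcc4. Col5a1, a fibrillar collagen chain, had 4 sites, the strongest with a −log10 q of 9.83 in an intron, where the H3K4me1 peak had a −log10 q of 10.6 in eA and 31.4 in lA, values of separate lists. Col8a1 had 3 sites, and the strongest, with a −log10 q of 15.4, had no H3K4me1 peak in lA. Col6a2 and Lamc1 had 3 each, and Col11a1 and Nid2 had 1 each, with −log10 q of 13.8 and 9.05. Matrix genes also had more H3K27ac peaks, a median of 7 in lA against 2 per coding gene, and of the 26 with any lA-unique site 76.9% had a newly primed one, beside 53% of all such genes. The part of peak number in these shares was not tested. Under a −log10 q of at least 5 for the lA H3K27ac peak, the matrix genes with a site were 11 instead of 20, and over all coding genes they were 2481 instead of 3546. Of 17 integrin genes, which encode matrix receptors, 5 had a site (29.4%), and Itga9 had 4 and Itga2 3. Of the 14 integrin genes with any lA-unique site, 35.7% had a newly primed one, below the 53% of all such genes.

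Genes of the Hippo and of the TGF-beta and BMP pathways had sites more often than coding genes as a whole. Of 13 Hippo genes, 8 (61.5%) had a site: the kinase gene Lats2, with 2 sites and a −log10 q of up to 15.8, the angiomotin-like genes Amotl1 and Amotl2 with 2 each, both co-activators Wwtr1 (2) and Yap1 (1), Tead3 (1), and the YAP targets Ctgf (2) and Cyr61 (1). At Wwtr1 the strongest site lay at -14628 bp and its eA H3K4me1 peak of 1198 bp reached over from aNPC. Of 27 TGF-beta and BMP genes, 14 (51.9%) had a site, 26 sites in all. Among the ligands were Tgfb2 with 3 sites, Bmp6 with 3 and Bmp2 with 1, among the receptors Tgfbr3 with 4, Tgfbr1, Bmpr1a and Bmpr2 with 1 each, and among the signal transducers Smad3 with 3 and Smad2 with 2. The strongest of these sites lay at -36441 bp from Smad2, with a −log10 q of 21.0 and a separate eA H3K4me1 peak, and the inhibitory SMAD genes Smad6 and Smad7 had 2 and 1. Hippo genes had a median of 12 lA H3K27ac peaks and TGF-beta and BMP genes of 11, far above the 2 of all coding genes. Among genes with any lA-unique site, 80% of the Hippo genes and 63.6% of the TGF-beta and BMP genes had a newly primed one, beside 53%. Of 14 genes of gp130, JAK and STAT signalling, 5 (35.7%) had a site, beside 16.7% of all coding genes, and of the 9 with any lA-unique site 55.6% had a newly primed one, near the 53% of all such genes. They were the receptor genes Il6ra, Il6st (the gene of gp130 itself) and Lifr and the kinase genes Jak1 and Tyk2, and the strongest was an intronic site of Il6ra with a −log10 q of 18.4.

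Astrocyte genes were represented in part. Of 25 astrocyte identity genes, 8 (32%) had a site, 14 sites in all, beside 16.7% of all coding genes. Of those with any lA-unique site, 57.1% had a newly primed one, near the 53% of all such genes. Kcnj10 had 1 at a −log10 q of 20.9 with the TEAD letters printed above, Ntrk2, the receptor of BDNF, had 4 with up to 12.3, the hyaluronan receptor gene Cd44 had 2, the bicarbonate transporter gene Slc4a4 had 2, and Apoe, Aldh1l1 and Acsbg1 had 1 each. Aqp4, the water channel of astrocyte end-feet, was nearest to 2 sites of its 10 lA-unique ones, with −log10 q of 7.38 and 3.73, the first at -28703 bp and the other at -60559 bp inside Chst9, and at both no H3K4me1 peak was found in lA. Gfap, the filament gene that marks astrocytes, had no newly primed site and no lA-unique one among its 3 lA H3K27ac peaks. Of 26 reactive astrocyte genes, 9 (34.6%) had a site, led by Ptx3 with 2 sites and a −log10 q of up to 20.9, followed by Fkbp5 with 2 and Tm4sf1 with 3. Of the reactive genes with any lA-unique site, 56.2% had a newly primed one, again near 53%.

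Of the factors that the study depleted and their relatives, 6 of 11 (54.5%) had a site, beside 16.7% of all coding genes, and of the 8 with any lA-unique site 75% had a newly primed one, beside 53%. Their median number of lA H3K27ac peaks was 8. Runx2 had 4, all in its introns, with −log10 q between 3.40 and 6.42, and the 2 strongest shared 1 eA H3K4me1 peak of 755 bp. The strongest, at chr17:44715519-44715831, met that peak only at its edge, since the peak ended at 44715540. The weakest, at chr17:44650056-44650398, likewise met an eA H3K4me1 peak that began at 44650382. All 4 had H3K4me1 in lA, and the gene had 17 lA-unique sites in total. Nfia had 2 intronic sites with −log10 q of 4.92 and 3.66, among 48 lA H3K27ac peaks. Atf3 had 1 site at -7287 bp with a −log10 q of 11.2, where the eA H3K4me1 peak of 1240 bp reached over from aNPC. Nfib, Runx1 and Runx3 had 1 each, and Stat3 and Prdm9 had none. Of the 14 AP-1 genes, 2 (14.3%) had a site, Bach2 with 3 and Fosl2 with 1, a share near the 16.7% of all coding genes, and of the 5 with any lA-unique site 40% did, beside 53%.

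Genes of other cell types were also nearest to newly primed sites. Of 19 neuronal genes, 5 (26.3%) had a site, beside 16.7% of all coding genes, among them the GABA synthesis genes Gad2 with 3 and Gad1 with 1, and Stmn2, whose site had a −log10 q of 10.6. Of 13 oligodendrocyte lineage genes, 5 (38.5%) had one, Mbp and Enpp6 with 2 each and Cspg4, Olig1 and Olig2 with 1 each, and of the 17 mesenchymal genes 4 (23.5%), with Zeb1 at 3. Of 9 pluripotency genes 2 (22.2%) had a site, Nanog and Tdgf1. Among the genes with any lA-unique site, the share with a newly primed one was 100% of 5 oligodendrocyte lineage genes, 71.4% of 7 neuronal genes, 66.7% of 3 pluripotency genes and 36.4% of 11 mesenchymal genes, beside 53%, so that the first pair was as high as or close to the matrix and Hippo genes. None of the 10 microglial genes had one, nor any lA-unique site, and their median number of lA H3K27ac peaks was 0. Whether these genes were transcribed was not analysed here.

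**Figure D5:**
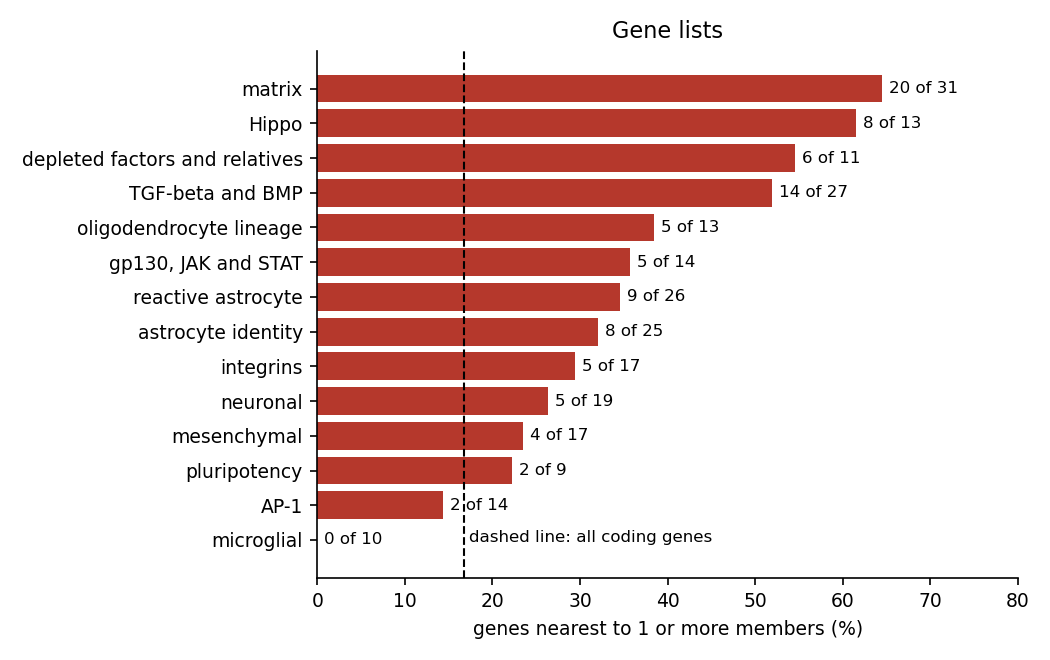
Share of the genes of each list that were nearest to 1 or more newly primed sites (members; x axis, percent), with the counts beside the bars and a dashed line at the 16.7% of all coding genes. Matrix genes (64.5%) and Hippo genes (61.5%) had the highest shares, AP-1 genes (14.3%) lay near the line, and no microglial gene had a site.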

How the data were processed

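H3K27ac and H3K4me1 were profiled in aNPC, eA and lA. The authors aligned reads uniquely to mm9 with Bowtie, merged both replicates with SAMtools and called peaks with MACS2 at default settings without input. The deposited lists give, per peak, a score (10 times the −log10 q, as a whole number), a fold enrichment over local background, the −log10 p (not used) and −log10 q computed by the authors' caller, and the summit's offset (other). Fold and −log10 values were used within 1 list only, since depth is unknown. Of the series' 51 samples, 8 with conflicting labels were left unassigned, and RNA-seq and knockdown samples were not analysed here.

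Overlaps, Wilson and Newcombe intervals (95%) and exact motif matches were computed with Python 3.11.15, NumPy 2.4.6, pandas 2.3.3 and pysam 0.24.0, and plots with matplotlib 3.10.9. They were tested on simulated data. An interval that excluded 0 passed the threshold. Intervals treat sites as independent and cover counting error only. Genes came from GENCODE M1 on mm9, with 1 entry per symbol. The members and gene lists were chosen with earlier results of these data known. Named were the 10 sites of highest −log10 q, the 10 genes with most sites, up to 5 genes per list by −log10 q, and Gfap, Aqp4, Nfia, Atf3, Runx2, Stat3 and Prdm9. Sites on chromosome 18 were not considered for the printed windows. Counts of sites are given for further list members, chosen after their values were seen. Also added after seeing the data were the comparisons that start from eA H3K4me1 peaks and the profile of motif matches by distance. The alternatives were thresholds of q, other overlap rules, list lengths, chromosomes X and Y, promoter and gene definitions and motif windows.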

Additional observations from a re-analysis of the deposited data

How the results depend on the processing

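Each stage and mark is 1 merged list of unknown depth, so no difference between stages has a replicate error, and the replicates could not be left out in turn. No paired analysis was possible because the replicates of each stage were merged before peaks were called.

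The 8022 sites became 4821 with lA H3K27ac peaks of −log10 q of at least 5, 3531 when no peak of the absent lists was allowed within 1 kb, and 5229 with equal list lengths. The genes nearest to a site became 1736 under the 1 kb rule. That rule also redrew the comparison groups, and a site with an aNPC H3K4me1 peak within 1 kb could then count as primed since aNPC. In the order of −log10 q of at least 5 for the sites, the same for all lists, H3K4me1 called at the summit, H3K4me1 called over 50% of the peak, the 1 kb rule and equal list lengths, the share with an lA H3K4me1 peak was 87.1%, 85.5%, 77.2%, 77.6%, 88.5% and 79.4%, and the share with a separate eA H3K4me1 peak 79.5%, 81.6%, 61.0%, 59.9%, 99.97% and 74.4%. The 99.97% follows largely from the 1 kb rule itself, which allows no aNPC H3K4me1 peak within 1 kb of a site. The promoter share was 1.48% at the summit, 1.46% over 50% of the peak, 0.595% under the 1 kb rule and 3.55% within 1 kb of any start site. The difference in lA H3K4me1 from sites primed since aNPC kept its direction and stayed past the threshold under all 7 alternatives run for it (-11.3 to -3.69 points), as did that in promoters (-3.24 to -1.22 points). The promoter difference from sites gaining both marks became -0.455 points under the 1 kb rule, past the threshold. The number of motif intervals that excluded 0 was 2 at a −log10 q of at least 5, 11 in 500 bp and 14 in 1000 bp, the last chosen after seeing the data. The AP-1 difference from sites primed since aNPC in 200 bp did not pass with a −log10 q of at least 5 for the sites (0.561 points) or all lists (0.677), with equal list lengths (0.603) or in 100 bp (0.170). TEAD did not pass at a −log10 q of at least 5 (0.960) or with equal list lengths (1.03). Reversed were RUNX against sites gaining both marks with all lists at a −log10 q of at least 5 (1.21 points), the NFI half-site against the same group with equal list lengths (-0.982) and the homeodomain letters against sites primed since aNPC in 1000 bp (1.40), whose intervals all included 0 in the main window. In the 200 bp window, calls were gained for RUNX (-1.34) and SOX (1.81) under the 1 kb rule, NFI at the summit (-0.852) and over 50% of the peak (-0.960), AP-1 against sites gaining both marks over 50% of the peak (0.764) and STAT against sites primed since aNPC with equal list lengths (0.354), and in 100 bp for the homeodomain letters against sites gaining both marks (-0.517). The cause was not tested.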
